A study of Bos taurus with 30 samples.

Results

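In the cervix of 30 Limousin heifers, 100 transcripts were chosen because their levels were highest at the onset of oestrus. Levels were taken in CPM, the count of a transcript per 1000000 counts of its library. Transcripts with a mean of 1 to under 1000 CPM over all heifers were kept, 16207 of the 28054 listed, and 0.5 CPM was added to each stage median. A transcript qualified when its median at Oestrus was the highest of the 6 stages and at least 1.5 times the second highest. This held for 931 transcripts, and the 100 with the largest ratio are the members. Their levels at Oestrus against the other stages therefore chose them and are described without a test.

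Each library came from 1 heifer, taken at slaughter. All heifers shared the same synchronisation: an intravaginal progesterone device (CIDR, 1.94 g) worn for 8 days, and 0.5 mg of a prostaglandin F2α analogue given 1 day before the device came out. Stage labels were 12hrPostCIDR and 24hrPostCIDR (6 heifers each, 12 h and 24 h after removal), Oestrus (onset of standing oestrus, 4 heifers), 12hrPostOestrus (12 h later, 4 heifers), 48hrPostOestrus (48 h later, 5 heifers) and Luteal (day 7 after onset, 5 heifers). The protocol text swaps the numbers of heifers given for the 12 h and 48 h stages, and the labels of the samples were used. Ages were not given, and no hormone was measured in the files used here.

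As background, removal of progesterone lets a follicle mature and oestradiol rise, and oestradiol peaks around standing oestrus. The cervix responds in that window: its epithelium secretes large amounts of fluid mucus, its stroma takes up water and loosens, and its canal becomes passable to sperm. After ovulation the corpus luteum restores progesterone, and the cervical mucus becomes scant and viscous. The cervix is a layered tissue of folded epithelium, connective tissue and smooth muscle, so a piece of it holds these in varying amounts. In whole tissue of this kind, fewer cells of a type and less RNA per cell cannot be told apart.

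The deposited tables give Ensembl transcript IDs and do not pair them with gene names, and 0 of the 28054 IDs matched the name table used here. The members are therefore described by rank (1 for the largest ratio) and by level, and neither the labelled tissue nor any cell type was checked against marker genes. Library totals ran from 5434853 to 19628122 counts (median 7983022), and 18256 to 19813 transcripts had a count in a library. The 10 most abundant transcripts took 6.87% to 23.6% of a library. The lowest 2 of these shares, 6.87% and 7.70%, were in Oestrus replicates 4 and 3.

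The stage ratio fell steeply from the first ranks. It was 7.69 for the member ranked 1 and 2.18 for the member ranked 100, with a median of 2.58. With stage means in place of medians the ratio of rank 1 was 2.04 and that of rank 2 fell from 7.55 to 2.02, and without the 3 heifers with 2-digit animal numbers they were 3.61 and 3.47. A ratio of at least 5 was reached by 7 members and of at least 3 by 29, while 41 lay under 2.5. The last members kept, ranks 99 and 100, had ratios of 2.189 and 2.178, and the first transcript not kept had 2.178. The second highest stage was 12hrPostOestrus for 53 members, 24hrPostCIDR for 29, 48hrPostOestrus for 9, Luteal for 7 and 12hrPostCIDR for 2. Mean levels over all heifers ran from 1.05 to 588 CPM with a median of 5.59. Members were covered by 46 to 36903 counts summed over the 4 Oestrus heifers, with a median of 362.5, so the lowest of them rest on few counts per library. CPM is not divided by transcript length, so levels are not compared between transcripts.

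The members were high in 2 of the 4 heifers at onset of oestrus, with the other two lower. To set all members on a common scale, the log2(CPM + 0.5) of each was taken relative to its own median over the 30 heifers, and the median over the 100 was expressed as a fold. This level was 6.06 in Oestrus replicate 4 and 5.41 in replicate 3, the highest 2 of all 30 heifers. It was 2.24 in replicate 1 and 0.875 in replicate 2, which lay below the typical heifer of the study. In 75 members, replicates 3 and 4 both lay above replicates 1 and 2, against 26.8% of the 16207 transcripts in the range. Measured member by member, replicate 3 exceeded 1.5 times the second highest stage median in 100 members, replicate 4 in 99, replicate 1 in 54 and replicate 2 in 8. With 4 heifers the median averages the middle pair, and 40 members reached the list with 2 heifers over this mark, 59 with 3 and 1 with all 4. No member had all 4 Oestrus heifers above all 26 other heifers (0 of 100, where 6 of 16207 transcripts, 0.037%, did). The Oestrus levels chose the members, so nothing is read from these counts, the 75 against 26.8% among them.

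**Figure D1:**
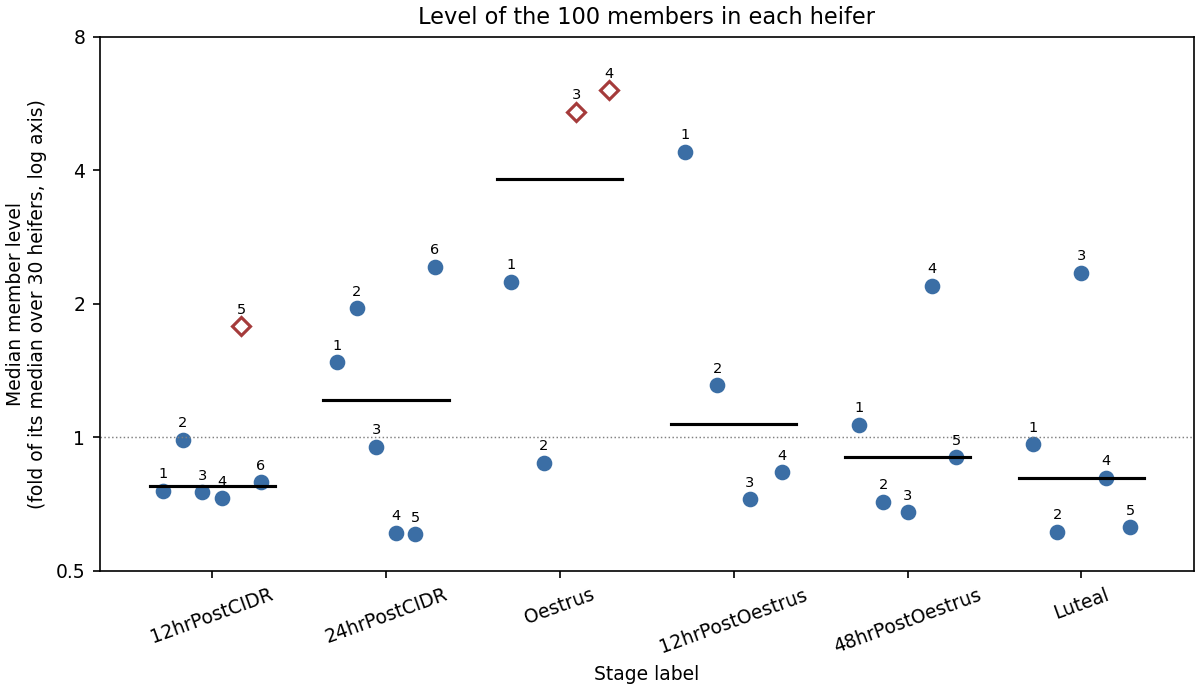
Each point is 1 heifer, numbered by replicate within its stage. The y axis (log scale) is the median over the 100 members of the level relative to each member's own median over all heifers, and the bar is the stage median. Open diamonds mark the 3 heifers with 2-digit animal numbers. Oestrus replicates 3 and 4 stand at 5.41 and 6.06, while Oestrus replicate 2 (0.875) lies among the heifers of other stages.

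The other stages also had single heifers with high levels of the members. At 12hrPostOestrus, replicate 1 was at 4.40-fold, between Oestrus replicates 1 and 3, and the other 3 heifers lay between 0.724 and 1.31. At 24hrPostCIDR the levels spread from 0.604 to 2.42, with replicate 6 (2.42) and replicate 2 (1.95) highest. At 48hrPostOestrus, replicate 4 was at 2.20 and the other heifers between 0.678 and 1.07. At Luteal, replicate 3 was at 2.35 and the others between 0.612 and 0.963, and at 12hrPostCIDR replicate 5 was at 1.78 and the others between 0.729 and 0.986. Thus 12hrPostOestrus replicate 1, 24hrPostCIDR replicate 6 and Luteal replicate 3 lay above Oestrus replicate 1 (2.24), and 48hrPostOestrus replicate 4 lay just under it. The levels of Oestrus overlapped those of every other stage.

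In share of the library, the members together made up 1.37% and 1.19% of all counts in Oestrus replicates 4 and 3, and 0.372% and 0.21% in replicates 1 and 2. The share averaged 0.785% ± 0.579 at Oestrus (SD, n = 4), 0.421% ± 0.457 at 12hrPostOestrus (n = 4) and 0.339% ± 0.276 at 24hrPostCIDR (n = 6). It was 0.256% ± 0.168 at 48hrPostOestrus (n = 5), 0.191% ± 0.124 at Luteal (n = 5) and 0.168% ± 0.0911 at 12hrPostCIDR (n = 6). The SD was large beside the mean in each of the 6 stages. The sum is led by abundant members, of which 12 had a mean over 100 CPM.

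Outside Oestrus, which heifer of a stage was highest was not used in choosing the members, except through the medians. In 95 of the 100 members, replicate 1 was the highest of the 12hrPostOestrus heifers, against 43.6% of all transcripts in the range. Luteal replicate 3 was highest of its stage in 74 members against 43.3% of all, 48hrPostOestrus replicate 4 in 69 against 37.8%, and 12hrPostCIDR replicate 5 in 67 against 41.7%. At 24hrPostCIDR the highest heifer was replicate 6 in 43 members (18.6% of all transcripts), replicate 1 in 27 (27.1%) and replicate 2 in 25 (12.7%). Among all 30 heifers, the highest level of a member fell in Oestrus replicate 4 for 39 members, Oestrus replicate 3 for 13, 12hrPostOestrus replicate 1 for 12, 48hrPostOestrus replicate 4 for 10 and Oestrus replicate 1 for 7. It never fell in Oestrus replicate 2 (0 members). The Oestrus levels chose the members and the share over all transcripts was not taken, so nothing is read from these counts. Within Oestrus alone, replicates 1 to 4 led in 11, 0, 33 and 56 members, which also follows from levels used in the choice. Of all transcripts in the range, they led their stage in 29.6%, 18.6%, 22.1% and 29.7%. On this plain CPM, the heifer highest in the members thus also led most often over all transcripts in the 4 stages other than Oestrus and 24hrPostCIDR. At Oestrus replicates 4 and 1 led about equally often, and at 24hrPostCIDR replicate 1 led most often and replicates 2 and 6 did not.

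**Figure D2:**
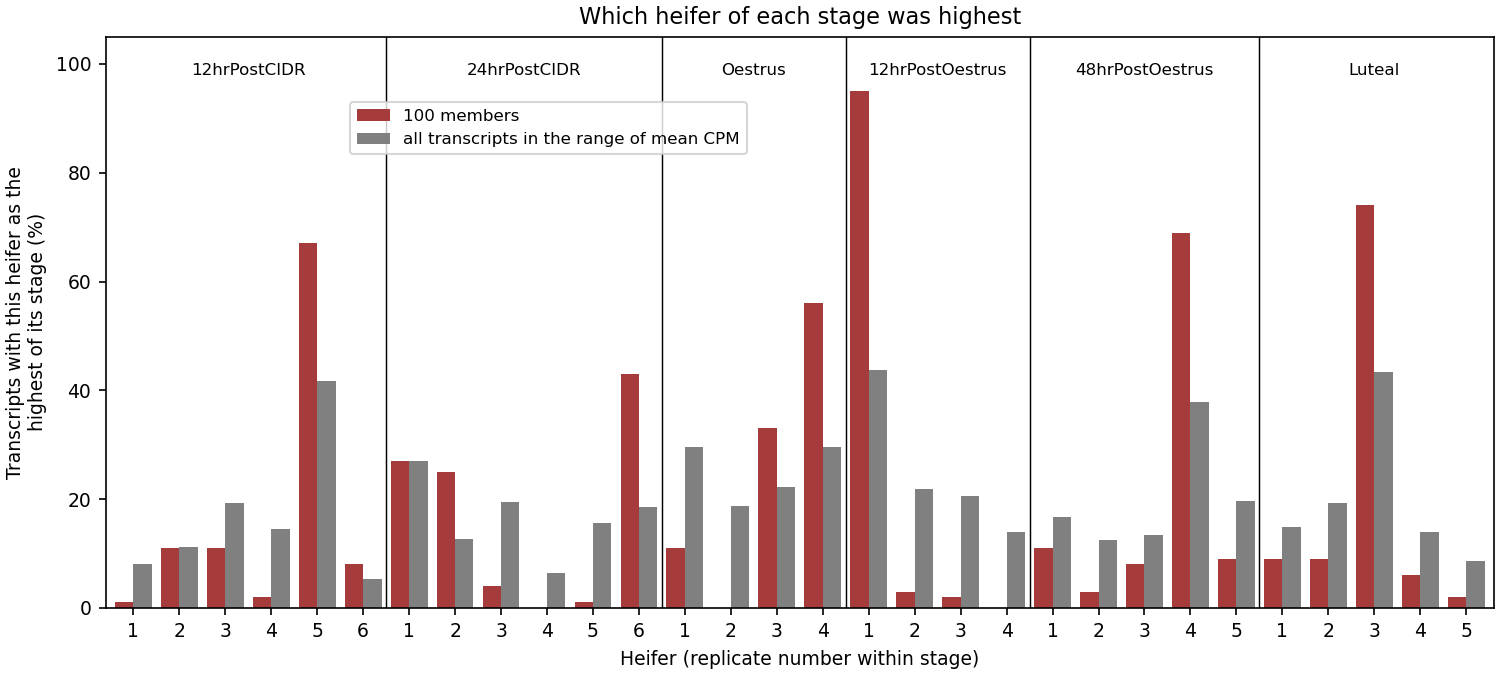
For each heifer, bars give the percent of transcripts for which it was the highest of its stage, for the 100 members (red) and for all 16207 transcripts in the range of mean CPM (grey). In the stage taken 12 h after onset, replicate 1 led in 95% of members and 43.6% of all transcripts.

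Library composition also differed between these heifers, and its part in their levels was not tested. The TMM factor, edgeR's trimmed-mean correction for composition by which the library size is multiplied, was largest in Oestrus replicates 4, 1 and 3 (1.28, 1.27 and 1.25), followed by 12hrPostOestrus replicate 1 (1.22) and 12hrPostCIDR replicate 5 (1.20). It was 1.14 in Luteal replicate 3, 1.07 in 48hrPostOestrus replicate 4 and 0.958 in Oestrus replicate 2. At 24hrPostCIDR it was 1.14 in replicate 1, 1.12 in replicate 6 and 0.988 in replicate 2. On the plain CPM of the rule, 45.5% of transcripts in the range had their highest stage median at Oestrus, and on CPM from TMM-scaled libraries 22.8% did. The same change took the 931 qualifying transcripts to 262, while 99 of the 100 members still qualified. The members' level in Oestrus replicates 4 and 3 was then 4.69 and 4.09, and 3.64 in 12hrPostOestrus replicate 1. Oestrus replicates 1 and 2 were at 1.75 and 0.886. Above Oestrus replicate 1 also lay 24hrPostCIDR replicates 6 and 2 (2.11 and 1.91), 48hrPostOestrus replicate 4 (2.05) and Luteal replicate 3 (2.01). On that scale 12hrPostOestrus replicate 1 was still the highest of its stage in 95 members, now against 27.1% of all transcripts. Luteal replicate 3 was highest in 68 against 29.1%, 48hrPostOestrus replicate 4 in 64 against 29.3% and 12hrPostCIDR replicate 5 in 52 against 23.5%. Over all transcripts, 12hrPostOestrus replicate 3 then led its stage most often (28.6%), and 24hrPostCIDR replicate 5 did in its own (25.9%). At Oestrus, replicates 1 to 4 led in 25.6%, 34.3%, 18.3% and 21.9% of all transcripts.

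The members varied together between heifers of the same stage. Over the 26 heifers outside Oestrus, with each stage mean removed, the median correlation between 2 members was 0.57, against 0.09 between 2 transcripts of the range. It was above 0 for 93.8% of member pairs and 58.4% of all pairs. All pairs share the same 26 libraries and their composition. The transcripts of the range were not matched to the members in spread, so the correlation is a description. The members were also variable in these heifers. Their within-stage SD of log2(CPM + 0.5) had a median of 1.15, against 0.53 for all transcripts in the range. It lay above 0.53 in 100 of 100 members. Choice by a large ratio between medians of few heifers favours variable transcripts, so nothing is read from that count. Some members are near copies of each other in level. In 15 pairs, holding 21 members, CPM over the 30 heifers correlated above 0.99, and joining them leaves 88 separate profiles. No member had the same counts as any other transcript in every heifer (0 of 100). Whether such pairs are isoforms sharing reads cannot be read from these files.

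Clustering the members by these within-stage profiles (average linkage, 4 groups, Oestrus heifers left out) gave subgroups of 72, 25, 2 and 1 members. The median correlation was 0.68 within the first and 0.54 within the second, and 0.36 between them. Subgroup 1, with 72 members, was high in 48hrPostOestrus replicate 4 (3.14-fold), Luteal replicate 3 (2.77-fold), 24hrPostCIDR replicate 6 (2.18-fold) and 12hrPostCIDR replicate 5 (1.99-fold), besides 12hrPostOestrus replicate 1 (4.01-fold). Subgroup 2, with 25 members, was near or below the typical level in 48hrPostOestrus replicate 4 (0.775-fold), Luteal replicate 3 (0.888-fold) and 12hrPostCIDR replicate 5 (0.902-fold). It was high in 24hrPostCIDR replicates 2 and 6 (7.30-fold and 7.16-fold) and in 12hrPostOestrus replicate 1 (8.52-fold). The subgroups were formed from these values and get no test.

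The subgroups also differed in the Oestrus heifers, which were not used to form them but whose levels chose all members. In replicates 3 and 4, subgroup 1 stood at 4.05-fold and 5.34-fold and subgroup 2 at 11.1-fold and 8.40-fold. In replicate 1, subgroup 1 was at 2.65-fold and subgroup 2 at 1.07-fold. In replicate 2, subgroup 1 was at 0.77-fold and subgroup 2 at 1.34-fold. Replicate 1 exceeded 1.5 times the second highest stage in 51 of the 72 members of subgroup 1 and 3 of the 25 of subgroup 2, and replicate 2 in 1 and 5. High levels of both subgroups in replicates 3 and 4 follow from the choice, as these 2 heifers were over that mark in 100 and 99 members. Replicate 1 was higher in subgroup 1 and replicate 2 in subgroup 2, which is a description. The remaining 3 members, ranks 5 and 49 (subgroup 3) and rank 56 (subgroup 4), followed neither profile. The member ranked 5 had 25.4 and 9.88 CPM in Oestrus replicates 3 and 4, 7.01 CPM in 24hrPostCIDR replicate 6 and at most 1.59 CPM elsewhere.

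**Figure D3:**
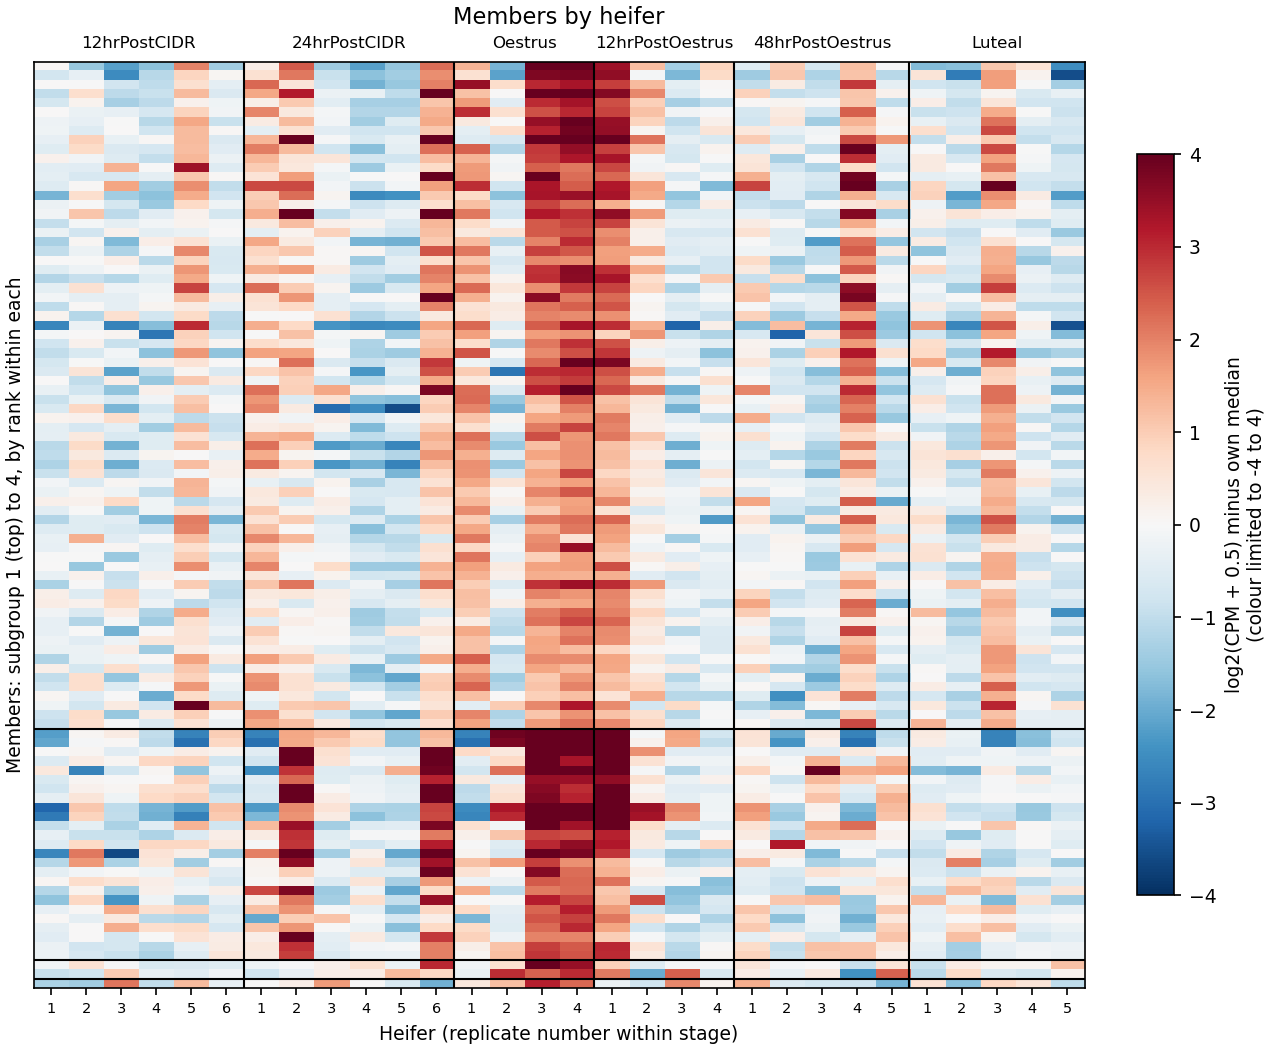
Rows are the 100 members and columns the 30 heifers, by stage and replicate number. Colour is log2(CPM + 0.5) minus the member's median over all heifers, limited at both ends as the colour bar shows, and horizontal lines part the subgroups of 72, 25, 2 and 1 members. Oestrus replicates 3 and 4 are red in nearly all rows, 48hrPostOestrus replicate 4 and Luteal replicate 3 mainly in the upper block, and 24hrPostCIDR replicates 2 and 6 most strongly in the lower block.

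The IDs of 4 members are given, 2 by rank and 2 for the steepest drop from the Oestrus to the 12hrPostOestrus median. ENSBTAT00000026035, ranked 1, was at 0, 46.1, 53.1 and 66.1 CPM in Oestrus replicates 1 to 4. In the 12hrPostOestrus heifers it was at 67, 2.49, 9.02 and 1.39 CPM. Thus 3 of 4 heifers at onset and 1 of 4 at 12 h carried levels over 40 CPM, and none of the other 22 heifers exceeded 8.76 CPM. It ranged from 0 to 5.76 CPM at 12hrPostCIDR (median 1.98), from 0 to 8.76 at 24hrPostCIDR (median 6.02), from 0 to 4.13 at 48hrPostOestrus (median 1.07) and from 0 to 3.53 at Luteal (median 1.47). ENSBTAT00000055175, ranked 2, followed it with a correlation of 0.9996 over the 30 heifers, at 0, 53.8, 64.4 and 75.9 CPM at Oestrus and 78.8, 3.96, 10.8 and 1.52 CPM at 12hrPostOestrus. These 2 IDs are not counted as separate signals.

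The heifers without counts of these transcripts were spread over the stages. ENSBTAT00000026035 had a count of 0 in Oestrus replicate 1, 12hrPostCIDR replicate 5, 24hrPostCIDR replicate 1, 48hrPostOestrus replicate 4 and Luteal replicate 3. A count of 0 allows up to 0.516 CPM in the first and 0.34 to 0.482 CPM in the others (3 counts of the total, for counting error only). ENSBTAT00000055175 was also at 0 in the first 4 of these and had 1 count (0.125 CPM) in Luteal replicate 3. In these same 5 heifers subgroup 1 was between 1.86-fold and 3.14-fold, which was noticed after the values were seen. High levels of subgroup 1 also stood beside many counts: ENSBTAT00000026035 was at 67 CPM in 12hrPostOestrus replicate 1 (subgroup 1 at 4.01-fold), at 53.1 and 66.1 CPM in Oestrus replicates 3 and 4 (4.05-fold and 5.34-fold), and at 7.34 CPM in 24hrPostCIDR replicate 6 (2.18-fold). Within stages, over the 26 heifers, ENSBTAT00000026035 correlated above 0.5 with 8 of the other 99 members and with 3.77% of all transcripts in the range. It correlated below 0 with 43 of the 99. The share of all transcripts below 0 with it was not taken, so nothing is read from the 43. Of all pairs of transcripts in the range, 58.4% were above 0.

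ENSBTAT00000029176, ranked 10, had the steepest fall between the Oestrus and the 12hrPostOestrus medians. It was at 2.23, 20.7, 179.8 and 100.3 CPM in Oestrus replicates 1 to 4 and at 83.9, 3.96, 1.55 and 3.17 CPM in the 12hrPostOestrus heifers. The medians were 60.5 and 3.56 CPM, but the means were 75.8 ± 81.4 and 23.1 ± 40.5 CPM (SD, n = 4 each), so the stages overlapped. Its ratio to the second highest stage, 4.72, was 1.64 without Oestrus replicate 3 or 4, 7.80 without Oestrus replicate 1 or 2 and 2.18 with stage means. At 48hrPostOestrus it was at 134.6 CPM in replicate 3 and 4.19 to 13.6 CPM in the others. At 24hrPostCIDR it reached 33.1 and 66.7 CPM in replicates 2 and 6 and 0.321 to 11.9 CPM in the rest. At 12hrPostCIDR and Luteal no heifer exceeded 5.69 and 5.23 CPM.

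ENSBTAT00000026158, ranked 35, owes its place to the stage medians. It was at 8.77, 4.97, 180.5 and 116.6 CPM in Oestrus replicates 1 to 4, a median of 62.7 CPM. In 24hrPostCIDR replicates 2 and 6 it was far higher, at 510.0 and 392.8 CPM, with 1.56 to 34.2 CPM in the other 4 heifers and a median of 21.8 CPM. By stage means the order is reversed, with 158 ± 230 CPM at 24hrPostCIDR (SD, n = 6) and 77.7 ± 85.9 CPM at Oestrus (n = 4). At 12hrPostOestrus it was at 61.1 CPM in replicate 1 and 2.71 to 4.84 CPM in the others. The highest heifer was at 36.3 CPM at 12hrPostCIDR, 10.4 CPM at 48hrPostOestrus and 10.3 CPM at Luteal. By stage means, 90 of the 100 members had their highest stage at Oestrus, and 67 still met the ratio of 1.5.

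**Figure D4:**
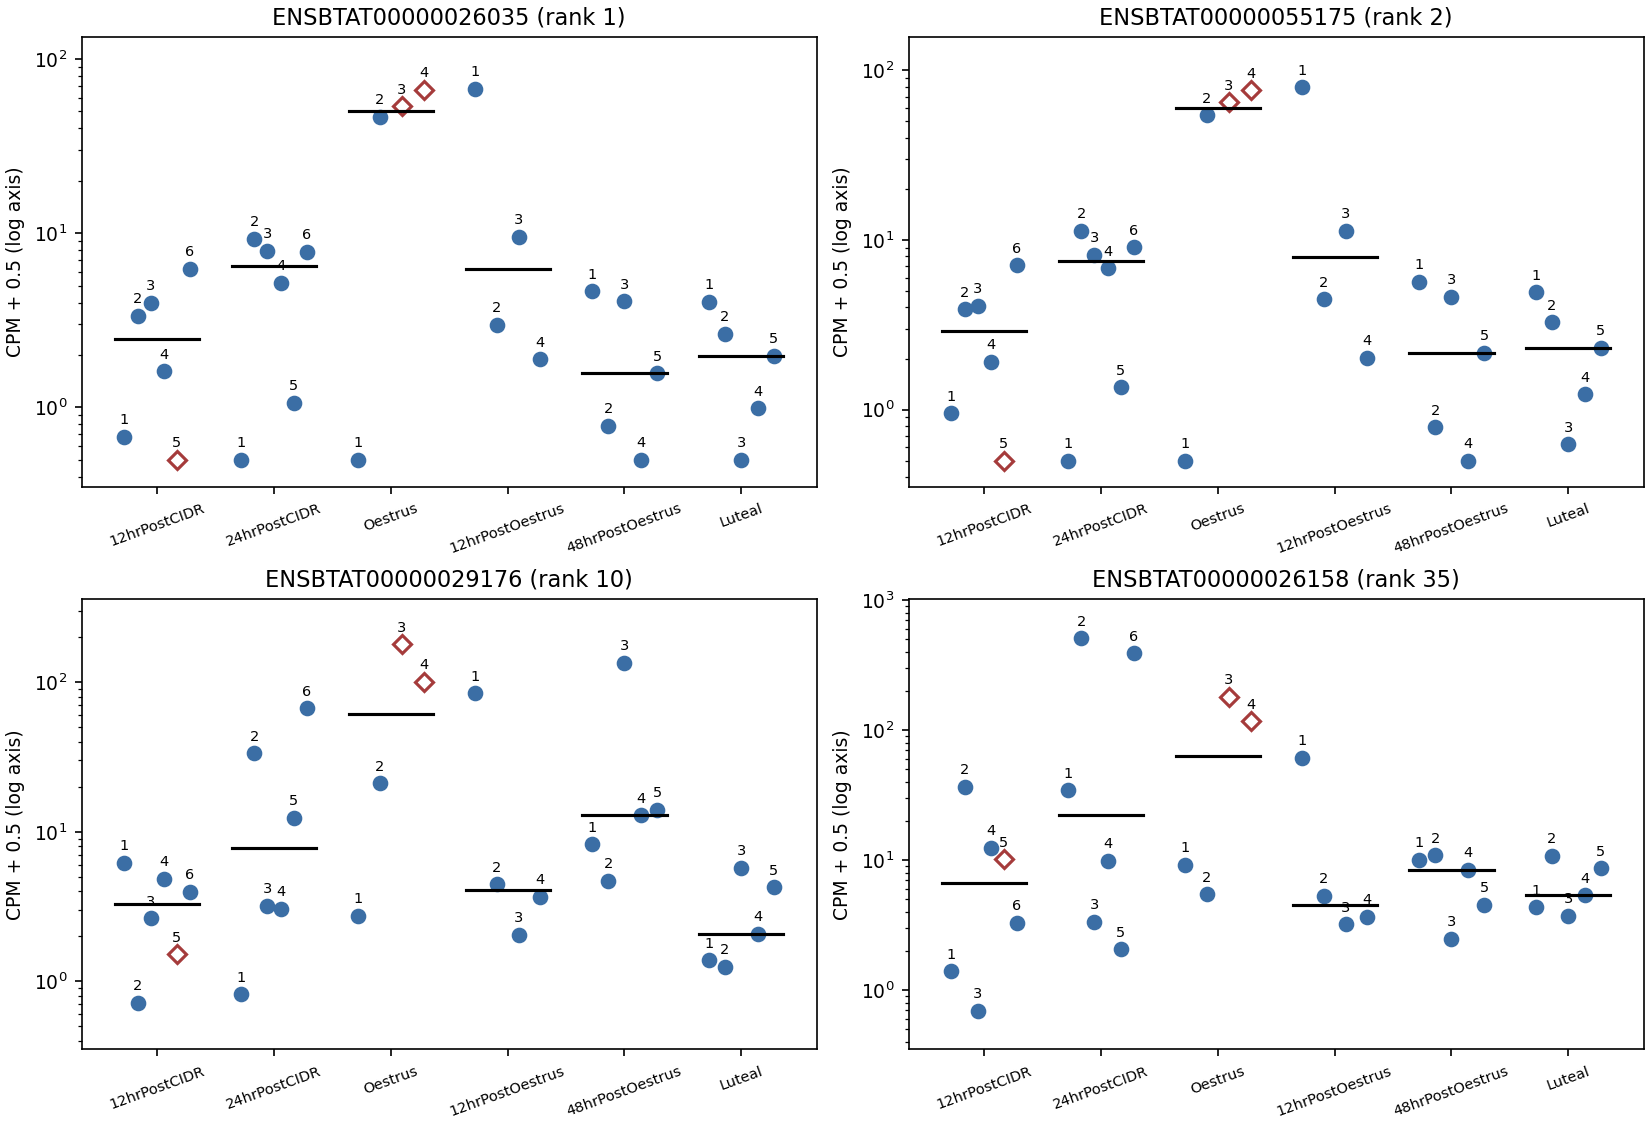
Levels of the 4 transcripts in each heifer, as CPM + 0.5 on a log axis, by stage label, with bars at stage medians and open diamonds for the 3 heifers with 2-digit animal numbers. ENSBTAT00000026035 and ENSBTAT00000055175 are at 0 CPM in Oestrus replicate 1 and over 40 CPM in the other 3 Oestrus heifers, and ENSBTAT00000026158 is highest in 24hrPostCIDR replicate 2, at 510.0 CPM.

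Some members outside these 4 show the range of profiles, chosen by rank after their values were seen. The member ranked 4, in subgroup 1, was at 141, 14.7, 1297 and 1693 CPM in Oestrus replicates 1 to 4, and its highest heifer elsewhere was 12hrPostOestrus replicate 1 at 587 CPM. The members ranked 18 and 19, in subgroup 2, moved together: the first was at 0.859, 73.8, 367 and 427 CPM and the second at 0.516, 49.4, 264 and 305 CPM in the Oestrus heifers. Both were low in Oestrus replicate 1, as the members ranked 1 and 2 were. The member ranked 42 was the only one with all 4 Oestrus heifers over 1.5 times the second highest stage median, at 3.78, 5.59, 12.5 and 6.27 CPM. Even so, 24hrPostCIDR replicates 2 and 6 were above them all, at 21.8 and 19.1 CPM.

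Oestrus replicates 3 and 4 and 12hrPostCIDR replicate 5 carry animal numbers that start with 2 digits, where all other heifers have 1 digit ahead of the hyphen. No label used here says what these digits encode. 12hrPostCIDR replicate 5 had the highest level of the members in its stage, 1.78-fold. At the median member, the mean of the 2 Oestrus heifers was 3.76 times the 12hrPostCIDR heifer within these 3. It was 2.18 times the median of the 5 12hrPostCIDR heifers for Oestrus replicates 1 and 2, within the heifers with 1-digit numbers. The Oestrus levels chose the members, so both ratios are a description and nothing is read from them. Without the 3 heifers, 554 transcripts qualified by the same rule, and 32 of the 100 members were among them. These 3 include the 2 Oestrus heifers with the highest levels of the members. Both kinds of number occur at Oestrus and at 12hrPostCIDR, so animal number is only partly separated from stage. Whether it bears on the levels was not tested.

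Leaving out single heifers at Oestrus mostly restates the counts of heifers over the mark given above, since the median of those remaining is the middle one. Without replicate 3, 59 of the 100 members still qualified, and without replicate 4, 60 did. Without replicate 1 it was 98, and without replicate 2 all 100. Leaving out replicate 2, the heifer with low levels, raised the number of qualifying transcripts from 931 to 1754, and leaving out replicate 4 lowered it to 583. When every Oestrus heifer was required to reach 1.5 times the second highest stage median, an alternative added after the data were seen, 5 transcripts qualified, of which 1 was a member.

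The rule put the same bound on the median of each of the 5 stages other than Oestrus, which are compared here. Selection still bears on these comparisons. The medians rest on 4 to 6 heifers, and a single high heifer can pass under the bound. Some members, such as that ranked 5, reached the mean of 1 CPM only through the Oestrus heifers. The comparisons were made in 1 edgeR fit over 16940 transcripts, which included 100 of the 100 members, with Benjamini-Hochberg adjustment. The fit held all 30 heifers, so the spread of each transcript was estimated with the Oestrus heifers included. Between 24 h and 12 h after CIDR removal, on the way to oestrus, 84 members were higher at 24hrPostCIDR in fitted level and 16 lower, with a median log2 difference of 0.56 (median SE 0.74), against 51.3% higher and a median of 0.01 over all transcripts. None passed (0 of 100, with 0% of all, smallest edgeR adjusted p = 0.511). At an unadjusted p under 0.05, 23 members were higher, against 4.63% of all transcripts, and 0 were lower, against 4.22%. DESeq2 called 0 members and 0.0649% of all transcripts. The log2 differences ran from -1.56 to 5.06. The median was 0.31 without 24hrPostCIDR replicate 6, with 13 members at an unadjusted p under 0.05, and without replicate 2 it was 0.48, with 14.

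After onset, 12hrPostOestrus was compared with 48hrPostOestrus and with Luteal, which share the 12hrPostOestrus heifers. Against 48hrPostOestrus, 67 members were higher at 12 h and 33 lower, with a median log2 difference of 0.47 (median SE 0.85) beside 44.7% higher and a median of -0.05 over all transcripts. No member passed in edgeR (0 of 100, 0% of all, smallest adjusted p = 0.896). At an unadjusted p under 0.05, 8 were higher (2.48% of all) and 0 lower (2.92%), and DESeq2 called 0 members and 0.0059% of all. Against Luteal, 80 members were higher and 20 lower, with a median of 0.63 (median SE 0.85) beside 45.8% and -0.03 over all. Again 0 of 100 passed in edgeR (0% of all, smallest adjusted p = 1), 19 were higher at an unadjusted p under 0.05 (1.04% of all), 0 lower (1.76%), and DESeq2 called 0 members and 0.0059% of all. Both medians turned negative without 12hrPostOestrus replicate 1, to -0.58 against 48hrPostOestrus and -0.21 against Luteal, with 1 and 2 members at an unadjusted p under 0.05. They rose to 0.92 without 48hrPostOestrus replicate 4 and to 1.25 without Luteal replicate 3, the latter with 29 such members, and the second was 0.94 without 12hrPostOestrus replicate 4. Without 48hrPostOestrus replicate 2 or 3, 5 members in place of 8 reached that p in the first.

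Between the 2 latest stages, 66 members were higher and 34 lower at 48hrPostOestrus than at Luteal, with a median log2 difference of 0.24 (median SE 0.80) beside 51.5% higher and 0.01 over all transcripts. No member passed in edgeR (0 of 100, 0% of all, smallest adjusted p = 0.944). At an unadjusted p under 0.05, 4 members were higher (1.92% of all) and 1 lower (2.82%), and DESeq2 called 0 members and 0.0177% of all. Without 48hrPostOestrus replicate 4 the median was -0.36, and without Luteal replicate 3 it was 0.80, with 12 members at an unadjusted p under 0.05. Leaving out any other 48hrPostOestrus heifer gave 0.37 to 0.44, and leaving out Luteal replicates 4 and 5 gave 0.098 and 0.14. Without 48hrPostOestrus replicate 1 or Luteal replicate 1 or 5, 2 members reached that p, and without Luteal replicate 2, 3 did. In all 4 comparisons no member passed the adjusted test, whose spread was estimated with the Oestrus heifers included. The size of the members' median moved with single heifers, as did its direction in the 3 comparisons after onset.

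**Figure D5:**
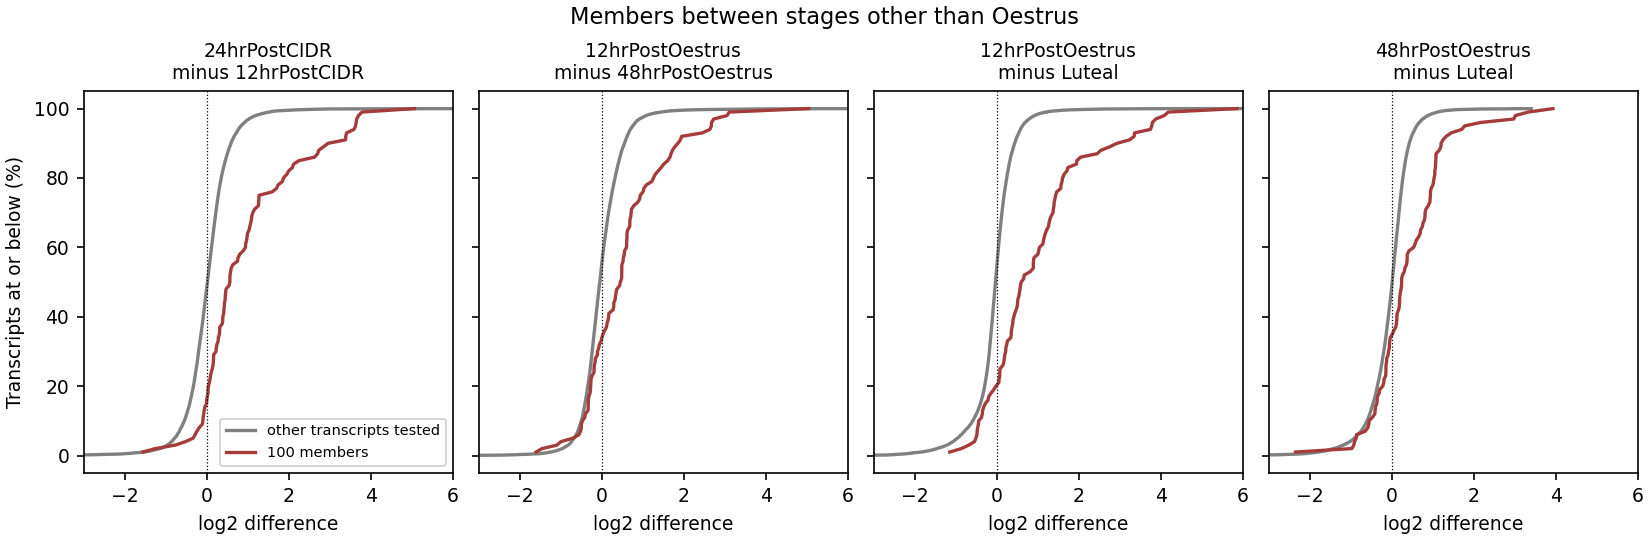
Cumulative percent of transcripts at or below each log2 difference (edgeR fit), for the 100 members (red) and the other transcripts tested (grey), in 4 comparisons of stages other than Oestrus. The members' curve lies to the right of the other transcripts' over most of its length, with medians of 0.56, 0.47, 0.63 and 0.24, and no member passed the adjusted test.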

How the data were processed

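Polyadenylated RNA was sequenced as single reads, per the labels' protocols, and CASAVA 1.0 is named in the submitters' processing notes. Aligner, counting program, build, annotation and strandedness are unknown (not given in the sources used here), so overlapping or antisense transcripts and isoforms sharing reads could not be told apart. The authors deposited raw counts per Ensembl transcript for 30 libraries. Replicates are separate heifers, numbered in accession order within a stage.

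CPM used the sum of each deposited column. Members were found by the stated rule, and the members, lists and tests were chosen with earlier results of these data known. The gene and marker lists could not be applied, as no ID matched a name. IDs printed were the members ranked 1 and 2 and the 2 others with the lowest ratio of the 12hrPostOestrus to the Oestrus median. Stages were compared with edgeR 4.0.16 in R 4.3.3 (TMM, filterByExpr by stage, robust quasi-likelihood fit, 1 mean per stage, adjusted p under 0.05), tested on simulated data. The common biological coefficient of variation was 0.468. Alternatives were DESeq2 1.42.0, RLE factors, no filter, other settings of the rule, and omission of heifers. Intervals from counts cover counting error only.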

Additional observations from a re-analysis of the deposited data

Results flagged for a closer look

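The values below come from heifers far from all others at their stage, judged by Dixon's gap test. It was applied to 38 sets of values, 1 measure at 1 stage each, and marked 11. About 1 in 20 would be marked by chance if the values were normally distributed. They were not put on a log scale, and each marked value was the highest of its set, so the rate by chance may be higher. Several measures describe the same members, so these are not separate findings. The members, and the IDs ranked 1 and 2 among them, were chosen for stage medians that were low outside Oestrus, which bears on the gaps given here for them, and no cause was tested.

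12hrPostCIDR replicate 5 had a member share of 0.34% of counts (0.101% to 0.181% in the others of its stage) and a median member level of 1.78-fold (0.729 to 0.986). 48hrPostOestrus replicate 4 had a member share of 0.554% (0.159% to 0.212%) and a median level of 2.20-fold (0.678 to 1.07). Luteal replicate 3 had a median level of 2.35-fold (0.612 to 0.963).

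12hrPostOestrus replicate 1 had a median level of 4.40-fold (0.724 to 1.31 in the others of its stage). It also had 67 CPM of ENSBTAT00000026035 (1.39 to 9.02) and 78.8 CPM of ENSBTAT00000055175 (1.52 to 10.8).

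ENSBTAT00000029176 was at 134.6 CPM in 48hrPostOestrus replicate 3 (4.19 to 13.6 in the others), and ENSBTAT00000026158 at 36.3 CPM in 12hrPostCIDR replicate 2 (0.194 to 11.9). The library of 12hrPostCIDR replicate 6 held 19628122 counts (8819190 to 11075868 in the others of its stage).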

How the results depend on the processing

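The 931 qualifying transcripts became 262 with TMM-scaled libraries, 481 with stage means, 554 without the 3 heifers with 2-digit animal numbers and 5 when every Oestrus heifer had to reach the mark, and they lay between 583 and 1754 when single heifers of any stage were left out. Of the 100 members, 67 remained with stage means, 55 with a minimum mean of 5 CPM, which tests fewer transcripts, 32 without the 3 heifers and 1 with every Oestrus heifer required, and 59 to 100 with single heifers left out. The 55 are the members with a mean of at least 5 CPM over all heifers, so that count follows from the filter alone. Fewer heifers or a stricter mark enter by construction wherever heifers were left out or every Oestrus heifer was required. Otherwise the cause was not tested. Adding 1 CPM in place of 0.5 gave 814 and kept all 100 members.

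For ENSBTAT00000026158 the ratio of Oestrus to the highest other stage fell below 1 with stage means (0.492), without the 3 heifers (0.331), and without Oestrus replicate 3 or 4 (0.416 each, with up to 6.40 when 24hrPostCIDR replicate 1 was left out). For ENSBTAT00000029176 it was 0.926 without the 3 heifers. Set by the lowest Oestrus heifer, the ratio was 0.0767 for ENSBTAT00000026035, 0.0634 for ENSBTAT00000055175, 0.212 for ENSBTAT00000029176 and 0.245 for ENSBTAT00000026158.

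edgeR called 0 members in all 4 comparisons under every alternative run. Over all transcripts DESeq2 called 11, 1, 1 and 3 where edgeR called 0 (24hrPostCIDR minus 12hrPostCIDR, 12hrPostOestrus minus 48hrPostOestrus, 12hrPostOestrus minus Luteal, 48hrPostOestrus minus Luteal). edgeR called 0 to 102 in the first with single heifers left out, 102 being without 24hrPostCIDR replicate 4, and 0 in the others. The members' median log2 difference turned to -0.58 and -0.21 without 12hrPostOestrus replicate 1 in the comparisons of 12hrPostOestrus with 48hrPostOestrus and Luteal, and to -0.36 without 48hrPostOestrus replicate 4 in the last; the highest values with a heifer left out were 0.92, 1.25 and 0.80. No paired analysis was possible because the labels give no replicate numbers shared between stages.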
